A study of Mus musculus with 12 samples.

Results

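The 9 genes described here are transcription factors outside the Hox family that pattern the embryo and mark fat depots in the adult mouse: Ebf2, Zic1, Tbx5, Lhx8, Shox2, Tbx15, Tbx1, Irx3 and Irx5. They were taken by symbol from the deposited count tables, and all 9 were found among the 55536 genes counted. RNA with poly-A tails was sequenced from 2 fat depots, brown adipose tissue (BAT), a heat-producing depot, and inguinal white adipose tissue (IWAT), a lipid store under the skin. All mice were of the C57BL/6 strain and are described without age or sex in the labels. The KI-HFD groups carry the genotype Adv-CGRPalpha+/- and come from animals on a high-fat diet, and the WT-NC groups are wild type on normal chow. Each depot has 3 libraries of each kind, 12 libraries in all. Genotype and diet change together, so their effects cannot be told apart, and the labels give no more than the name of the allele on which cells carry it. The series text counts 3 animals per group, and p-values here measure the spread between the libraries as labelled.

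Developmental transcription factors are switched on where a tissue forms and many stay on afterwards, so a fat depot keeps a record of its position in the body. Brown fat of the mouse neck and back descends from mesoderm shared with muscle and skin, while inguinal fat forms near the hind limb. Ebf2 commits precursors to the brown fate by opening brown fat genes to PPARgamma, and Zic1 and Lhx8 have served as marks of classical brown fat, Tbx15, Shox2 and Tbx1 as marks of subcutaneous or beige fat.

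Libraries held 17408621 to 22632254 counts in BAT and 21078914 to 23514095 in IWAT. Levels are counts scaled by library size and TMM factors (CPM). The depots were what the labels call them: Ucp1, the uncoupling protein of brown fat, averaged 10086 CPM in BAT of KI-HFD mice and 7061 CPM in BAT of WT-NC mice, against 5.93 CPM in IWAT of KI-HFD mice and 11.2 CPM in IWAT of WT-NC mice. All 14 brown adipocyte markers and all 9 white adipocyte markers found in the tables had counts in each group. The leptin gene Lep averaged 129 and 532 CPM in BAT of KI-HFD and WT-NC mice, and 3889 and 6419 CPM in IWAT of KI-HFD and WT-NC mice. Adipoq, the gene of the adipocyte hormone adiponectin, averaged 1390.1 and 946 CPM in BAT of KI-HFD and WT-NC mice, and 3590.4 and 2822 CPM in IWAT of KI-HFD and WT-NC mice.

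Skeletal muscle transcripts were higher in BAT on average and varied widely between its libraries. Of 18 muscle markers, 18 were called higher in BAT of KI-HFD mice (median log2 fold change 7.84) and 17 in BAT of WT-NC mice (6.25) by edgeR's quasi-likelihood test. Over all genes tested 16.8% and 14.2% were called higher in KI-HFD and WT-NC mice. Every BAT library lay above every IWAT library for 18 markers in KI-HFD mice and for 3 in WT-NC mice. Over all genes tested 24.1% and 20.9% did so. Their summed level was 19821, 14517 and 2683 CPM in BAT of KI-HFD mice 1, 2 and 3, and 22726, 78699 and 699.8 CPM in BAT of WT-NC mice 1, 2 and 3. In IWAT the sum was 140.4, 43.9 and 151 CPM in KI-HFD mice and 94.7, 367 and 1144 CPM in WT-NC mice. Replicate 3 was thus the BAT library with the least muscle RNA in both groups. The fibroblast and progenitor marker sum was 998 to 1304 CPM in BAT of KI-HFD mice and 943 to 2990 CPM in BAT of WT-NC mice, with 4882 to 6842 CPM in IWAT of KI-HFD mice and 6700 to 9470 CPM in IWAT of WT-NC mice. In whole tissue, fewer cells of a type and less RNA per cell cannot be told apart.

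Promoter windows of RefSeq (GRCm38.p6) cover 250 bases before and 50 after a gene's start and were found for 5 of the 9 factors, Zic1, Lhx8, Shox2, Tbx1 and Irx3. Tbx5, Tbx15, Irx5 and Ebf2 are named only. The windows of Zic1 and Shox2 are shown because these genes had the widest opposite depot differences, with every CpG dinucleotide in capitals on the gene's own strand. Zic1 (chr9:91365719-91366018, minus strand) holds 31 CpG and has 65.3% G and C, and 90.5% of the 32851 windows hold 31 CpG or fewer. Shox2 (chr3:66981722-66982021, minus strand) holds 11 CpG and 53.3% G and C, near the medians of 7 CpG and 52.7%.
Zic1: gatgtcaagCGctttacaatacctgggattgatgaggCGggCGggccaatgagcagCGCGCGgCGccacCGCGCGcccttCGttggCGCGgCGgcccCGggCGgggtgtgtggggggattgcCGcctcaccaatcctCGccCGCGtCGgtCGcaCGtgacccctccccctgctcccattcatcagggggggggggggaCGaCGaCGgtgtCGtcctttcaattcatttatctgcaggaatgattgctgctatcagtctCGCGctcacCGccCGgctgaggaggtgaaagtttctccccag
Shox2: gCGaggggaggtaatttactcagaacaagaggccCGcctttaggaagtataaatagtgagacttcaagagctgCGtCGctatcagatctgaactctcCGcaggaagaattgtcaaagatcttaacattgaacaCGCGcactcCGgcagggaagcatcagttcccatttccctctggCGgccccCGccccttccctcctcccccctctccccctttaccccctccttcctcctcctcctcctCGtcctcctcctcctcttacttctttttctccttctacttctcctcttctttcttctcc

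The Lhx8 window (chr3:154330511-154330810, minus strand) is shown because a non-coding gene, AI606473, starts close by and runs in the opposite direction. In the gene annotation used for the counts it starts 162 bases from Lhx8. The RefSeq start that sets the Lhx8 window differs from the start in that annotation. Capitals mark the 240 bases, chr3:154330571-154330810, that are also in the window of AI606473. It has 4 CpG.
Lhx8: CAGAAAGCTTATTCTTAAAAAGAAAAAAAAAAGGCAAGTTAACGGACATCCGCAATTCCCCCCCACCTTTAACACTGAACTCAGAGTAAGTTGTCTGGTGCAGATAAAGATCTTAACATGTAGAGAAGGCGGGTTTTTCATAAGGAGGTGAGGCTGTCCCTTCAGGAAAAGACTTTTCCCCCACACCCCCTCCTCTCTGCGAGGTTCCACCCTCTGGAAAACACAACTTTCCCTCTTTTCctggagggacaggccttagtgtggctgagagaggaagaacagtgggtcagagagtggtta

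Motifs were searched on both strands in these windows as letters only. TATAAA, the TATA box, was found in the Shox2 window and in no other window of the 5 factors, and 13.6% of all windows hold it. No window of the 5 factors held the EBF family motif (TCCC and GGGA with any 2 bases between, in 0.904% of all windows), AGGTGTGA (T-box family, 1.28%) or TAATTA (homeodomain core, 5.29%).

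BAT and IWAT differed in 4 of the 9 factors in KI-HFD mice and in 5 of 9 in WT-NC mice. In KI-HFD mice Ebf2, Zic1 and Tbx5 were higher in BAT and Shox2 was lower, and in WT-NC mice the same 4 were called in the same directions with Lhx8 as another gene lower in BAT. Calls rest on edgeR's quasi-likelihood test with an adjusted p under 0.05 over all genes tested. The background is high: 34.7% of 15721 genes were called between the depots in KI-HFD mice and 26.8% of 16173 in WT-NC mice. By direction, 16.8% were higher in BAT and 17.9% lower in KI-HFD mice, with 14.2% and 12.6% in WT-NC mice. The median log2 fold change of the 9 factors, BAT over IWAT, was 0.63 in KI-HFD mice and 1.11 in WT-NC mice, beside -0.04 and 0.00311 over all genes tested. With sample numbers that recur in both depots as a block, none of the 5 factors was called in WT-NC mice, where 670 genes were called and 2 numbers recur, and the 4 calls in KI-HFD mice held. The labels do not say what these numbers mark.

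Ebf2 (chromosome 14, 67233292 to 67430918, plus strand) was the most abundant per transcript length of the factors called between depots. It had 120.2, 88.1 and 78.4 CPM in BAT and 26.7, 54.8 and 34.2 CPM in IWAT of KI-HFD mice. In WT-NC mice it had 56.6, 61.0 and 88.9 CPM in BAT and 29.8, 31.4 and 37.2 CPM in IWAT. Every BAT library lay above every IWAT library, and the closest were BAT WT-NC 1 and IWAT KI-HFD 2. The log2 fold change was 1.30 (SE 0.29) in KI-HFD mice and 1.11 (SE 0.21) in WT-NC mice, with adjusted p = 0.00847 and 0.00838 by edgeR's quasi-likelihood test. A long non-coding gene that starts 163 bases from Ebf2 on the other strand, Gm20675, was also higher in BAT. It had 2.10, 2.20 and 2.26 CPM in BAT of KI-HFD mice and 1.09, 1.33 and 0.703 CPM in BAT of WT-NC mice, on 15 to 40 counts a library. IWAT libraries had 0 to 4 counts of Gm20675, and its adjusted p between depots was 0.00115 in KI-HFD mice and 0.0117 in WT-NC mice (edgeR quasi-likelihood). Within Ebf2 on the other strand, with no shared exon bases, levels counted for the transcript 1700120O09Rik were higher in BAT too. They were 1.997 and 0.407 CPM in BAT and IWAT of KI-HFD mice (adjusted p = 0.0406, edgeR). In WT-NC mice they were 1.85 and 0.288 CPM in BAT and IWAT (adjusted p = 0.0184, edgeR). The reads do not tell strands apart, and the part of unspliced Ebf2 RNA in the 1700120O09Rik counts was not tested. Gm10860, an antisense gene that shares 424 bases or 6.12% of the Ebf2 exons, had 0 to 12 counts in a library.

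Zic1 (chromosome 9, 91358058 to 91365810, minus strand), a zinc finger factor of dorsal embryonic structures, was detected in BAT alone. It had 45, 36 and 34 counts in BAT of KI-HFD mice and 35, 35 and 23 counts in BAT of WT-NC mice, and 0 counts in each of the 6 IWAT libraries. These counts are 2.23 ± 0.405 CPM in KI-HFD mice and 1.56 ± 0.464 CPM in WT-NC mice (SD, n = 3). Folds against a floor of 3 counts over the 3 IWAT libraries of a group were taken from library totals, without TMM factors. Zic1 was at least 42.1-fold higher in BAT of KI-HFD mice and at least 33.7-fold higher in BAT of WT-NC mice. The adjusted p was 0.000849 and 0.00314 (edgeR quasi-likelihood). Zic4, the neighbouring family member with which Zic1 shares 60 exon bases on the opposite strand, had the same distribution: 21 to 46 counts in BAT of KI-HFD mice, 25 to 43 in BAT of WT-NC mice and 0 in IWAT. Against the same floor and without TMM factors, Zic4 was at least 34.8-fold and 38.1-fold higher in BAT of KI-HFD and WT-NC mice. The shared bases are 1.05% of the 5693 exon bases of Zic1.

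Tbx5 (chromosome 5, 119832668 to 119885219, plus strand), a T-box factor of forelimb and heart, was higher in BAT. In KI-HFD mice it had 11.5, 5.39 and 6.60 CPM in BAT and 2.11, 0.959 and 1.52 CPM in IWAT. WT-NC mice had 7.09, 3.54 and 6.89 CPM in BAT and 2.71, 1.64 and 2.02 CPM in IWAT. No BAT library fell as low as an IWAT library in either group. Its log2 fold change was 2.34 (SE 0.46, adjusted p = 0.00476) in KI-HFD mice and 1.50 (SE 0.38, adjusted p = 0.0242) in WT-NC mice by edgeR's quasi-likelihood test. The call in WT-NC mice was lost when BAT replicate 1 or IWAT replicate 1, 2 or 3 was left out (adjusted p 0.0522 to 0.0837, edgeR). The call in KI-HFD mice held when any 1 library was left out. Within the 2 libraries per group of the lower of 2 ranges of sample numbers in the deposit, the WT-NC value was 1.32 (edgeR adjusted p = 0.100), and the upper range holds 1 library per group. Gm43050, a non-coding gene 748 bases upstream on the other strand, was lower in BAT of WT-NC mice (edgeR adjusted p = 0.0191) and was not tested in KI-HFD mice. It had 0 to 3 counts in each BAT library and 3 to 19 in each IWAT library.

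Shox2 (chromosome 3, 66971727 to 66981771, minus strand), a homeodomain factor of proximal limb growth, was the factor with the largest called difference in favour of IWAT. It had 2.28, 2.75 and 2.44 CPM in BAT and 13.1, 17.9 and 13.5 CPM in IWAT of KI-HFD mice. WT-NC mice had 0.687, 2.39 and 1.50 CPM in BAT and 9.87, 11.2 and 16.2 CPM in IWAT. The depots were far apart, with the lowest IWAT library at several times the highest BAT library. Shox2 was 5.98-fold lower in BAT of KI-HFD mice (log2 fold change -2.58, SE 0.29, edgeR quasi-likelihood adjusted p = 0.000367) and 7.81-fold lower in BAT of WT-NC mice (-2.97, SE 0.46, adjusted p = 0.00355). Rsrc1, a splicing factor gene, overlaps it on the opposite strand over 153 bases, 4.62% of the Shox2 exons. Rsrc1 was lower in BAT too, at 22.7 and 42.4 CPM in BAT and IWAT of KI-HFD mice and 24.1 and 36.9 CPM in BAT and IWAT of WT-NC mice, and the reads do not tell strands apart. The fibroblast and progenitor marker sum, given above, was higher in every IWAT library than in any BAT library, and its part in the Shox2 difference was not tested.

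Lhx8 (chromosome 3, 154306294 to 154330659, minus strand), a LIM homeodomain factor of forebrain neurons and teeth, was not called higher in BAT in either group. In KI-HFD mice it had 3.60, 2.03 and 4.998 CPM in BAT and 0.672, 3.40 and 3.40 CPM in IWAT, and the depots overlapped. In WT-NC mice it had 2.40, 0.875 and 4.31 CPM in BAT and 12.7, 11.01 and 7.09 CPM in IWAT, with every IWAT library above every BAT library. The log2 fold change, BAT over IWAT, was 0.50 (SE 0.63, adjusted p = 0.581) in KI-HFD mice and -1.98 (SE 0.53, adjusted p = 0.0291) in WT-NC mice by edgeR's quasi-likelihood test. The WT-NC call was lost without BAT replicate 1 or without IWAT replicate 1, 2 or 3 (adjusted p 0.0590 to 0.104, edgeR), and the log2 fold change was -2.62 without BAT replicate 3. The difference between these depot contrasts, KI-HFD minus WT-NC, was 2.52 on the log2 scale (SE 0.90) with an unadjusted p of 0.0160 and an adjusted p of 1.00 (edgeR quasi-likelihood), so it did not pass over all genes.

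AI606473, whose start region is shared with Lhx8 as printed above, had 2.64, 2.31 and 2.50 CPM in BAT and 0.224, 3.55 and 2.32 CPM in IWAT of KI-HFD mice. In WT-NC mice it had 1.09, 0.322 and 4.13 CPM in BAT and 7.08, 5.72 and 5.44 CPM in IWAT. Its 3 highest libraries were the IWAT libraries of WT-NC mice, as for Lhx8, and its lowest was IWAT KI-HFD 1, also as for Lhx8. Among 17386 genes it was the closest to Lhx8 in pattern over the 12 libraries, with a root mean square difference of 0.480 in centred log2 CPM. Its log2 fold change between depots in WT-NC mice was -1.68 (SE 0.73) and was not called (edgeR quasi-likelihood adjusted p = 0.125). The 2 genes share no exon bases in the annotation. Acadm, a fatty acid oxidation enzyme gene farther along the same chromosome, was higher in BAT in both groups, at 3460.1 and 696 CPM in BAT and IWAT of KI-HFD mice and 2131 and 745 CPM in BAT and IWAT of WT-NC mice.

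**Figure D1:**
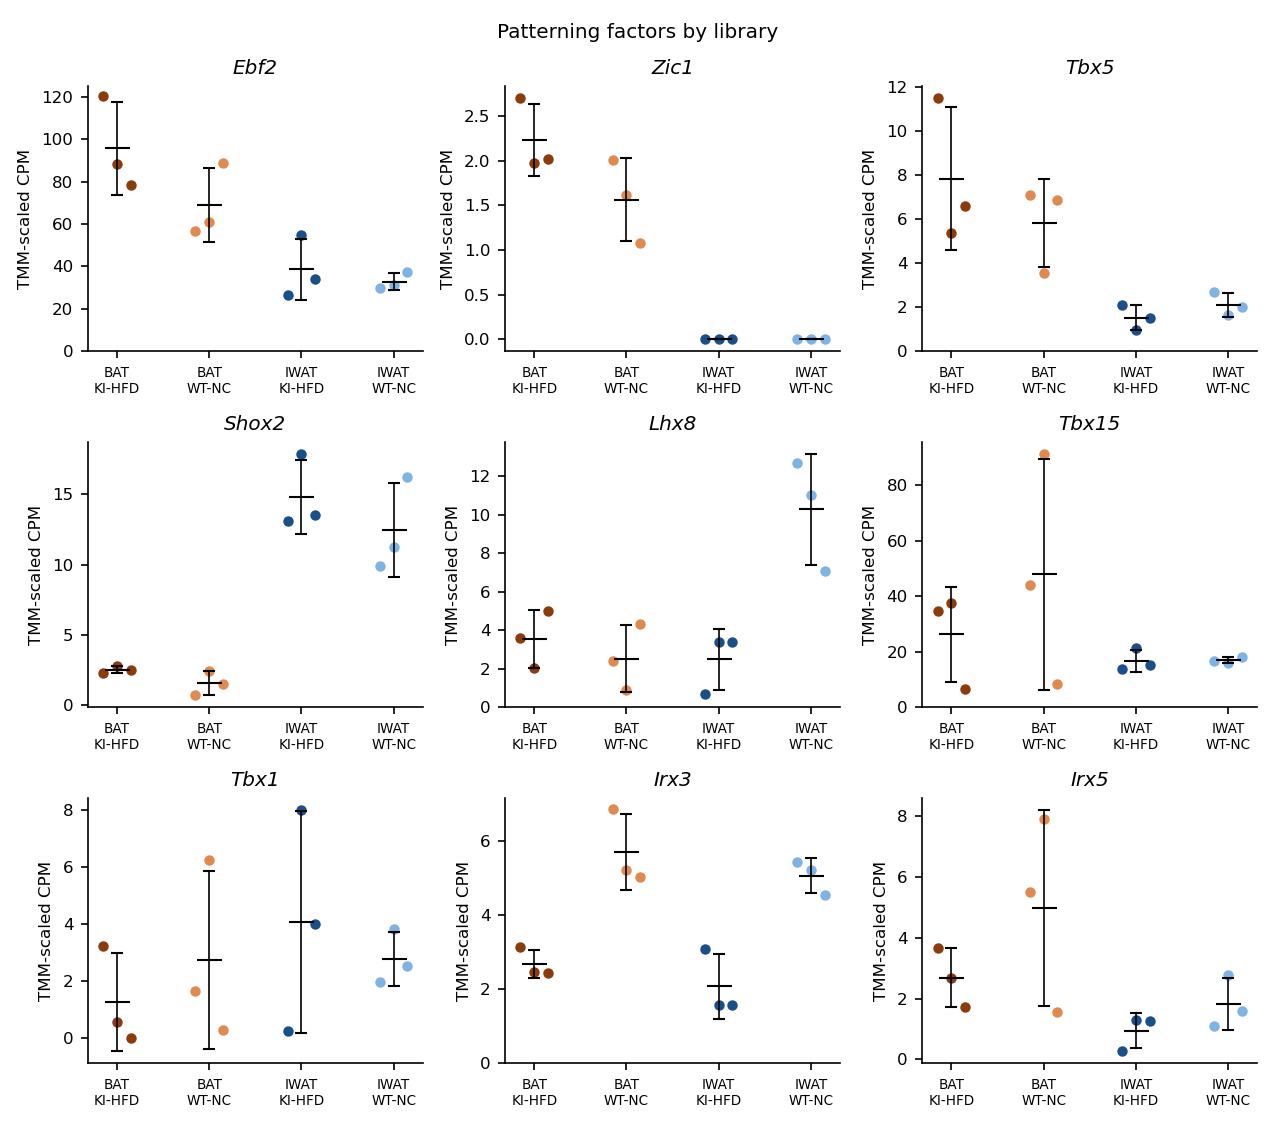
TMM-scaled CPM of each of the 9 factors (vertical axes, from 0 or just below) in the 3 libraries of BAT KI-HFD, BAT WT-NC, IWAT KI-HFD and IWAT WT-NC, with the mean and SD in black. Zic1 lies at 0 in all 6 IWAT libraries, Shox2 is high in IWAT, and Lhx8 reaches 7.09 to 12.7 CPM only in IWAT of WT-NC mice.

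**Figure D2:**
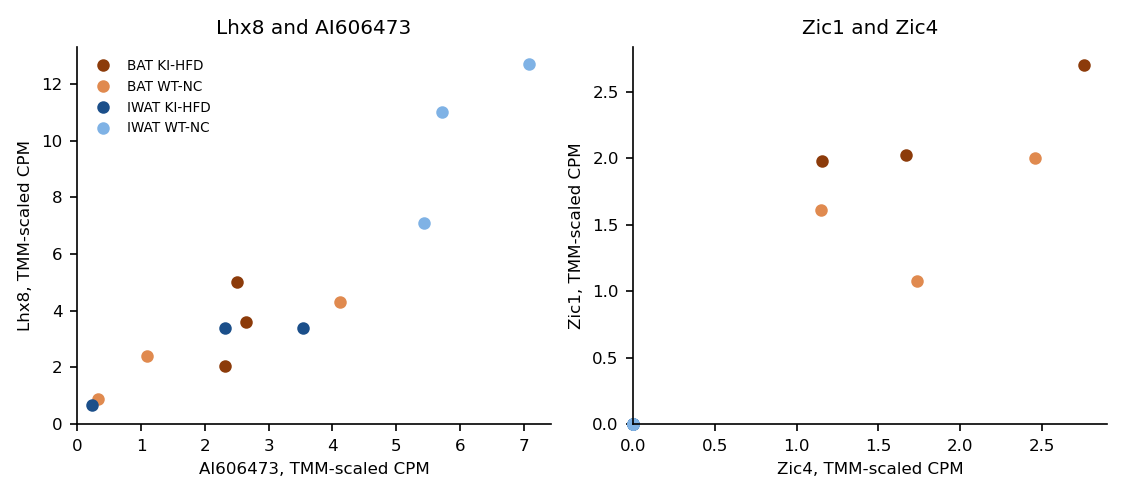
Lhx8 against AI606473 and Zic1 against Zic4, both axes in TMM-scaled CPM, 1 point per library in the colour of its group. The 3 IWAT WT-NC libraries are at the upper right for Lhx8, and all 6 IWAT libraries lie on the origin for Zic1 and Zic4.

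Tbx15 (chromosome 3, 99240381 to 99354259, plus strand), a T-box factor of skeleton, muscle and skin, did not pass between depots. It had 34.6, 37.7 and 6.49 CPM in BAT and 13.7, 21.2 and 15.4 CPM in IWAT of KI-HFD mice. Levels were 44.2, 91.3 and 8.35 CPM in BAT and 16.7, 16.1 and 18.1 CPM in IWAT of WT-NC mice. In each group replicates 1 and 2 of BAT lay above all IWAT libraries and replicate 3 lay below them all, and replicate 3 is the BAT library with the least muscle RNA (2683 CPM in KI-HFD mice and 699.8 CPM in WT-NC mice). In WT-NC mice BAT replicate 3 is also the library of the upper range of sample numbers. Mitochondrial genes held 4.53% of its counts, against 14.1% and 6.76% in replicates 1 and 2. In KI-HFD mice the BAT library of the upper range is replicate 1. The log2 fold change of Tbx15 was 0.63 (SE 0.54, adjusted p = 0.402) in KI-HFD mice and 1.55 (SE 0.67, adjusted p = 0.122) in WT-NC mice by edgeR's quasi-likelihood test. Without BAT replicate 3 edgeR gave 1.09 (adjusted p = 0.0160) in KI-HFD mice and 2.04 (adjusted p = 0.00127) in WT-NC mice, called in both. With the logarithm of the muscle sum as a covariate, an alternative added after seeing the data, it was -2.76 in KI-HFD mice and -1.08 in WT-NC mice. The muscle sums of the depots do not overlap in KI-HFD mice, and in WT-NC mice BAT replicate 3 lies below IWAT replicate 3 (1144 CPM). In KI-HFD mice muscle RNA and depot thus cannot be told apart in the covariate fit. The part of muscle RNA in the Tbx15 levels was not tested. Gm43120, antisense to Tbx15 with no shared exon bases, had 0 to 93 counts in a library.

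Irx5 (chromosome 8, 92357625 to 92376286, plus strand), an Iroquois homeodomain factor, had 3.66, 2.69 and 1.73 CPM in BAT and 0.269, 1.29 and 1.28 CPM in IWAT of KI-HFD mice. In WT-NC mice it had 5.49, 7.92 and 1.55 CPM in BAT and 1.09, 2.77 and 1.61 CPM in IWAT. The depots did not overlap in KI-HFD mice, and in WT-NC mice BAT replicate 3 fell among the IWAT libraries. Irx5 was not called in either group, with a log2 fold change of 1.48 (SE 0.63, adjusted p = 0.101) in KI-HFD mice and 1.50 (SE 0.62, adjusted p = 0.106) in WT-NC mice by edgeR's quasi-likelihood test. Without BAT WT-NC replicate 3 the WT-NC value was 1.92 and called (adjusted p = 0.0117, edgeR), and with the muscle covariate it was -0.38. Within each group the order of the BAT libraries by Irx5 was their order by muscle RNA. The part of muscle RNA in the Irx5 levels was not tested. Crnde, a non-coding gene 1505 bases away on the other strand, had 4.004 ± 1.39 CPM in BAT and 0.802 ± 0.560 CPM in IWAT of KI-HFD mice (SD, n = 3) and was called there (adjusted p = 0.0227, edgeR). In WT-NC mice Crnde had 5.25 ± 2.20 CPM in BAT and 1.79 ± 0.993 CPM in IWAT (SD, n = 3), with adjusted p = 0.0532 (edgeR).

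**Figure D3:**
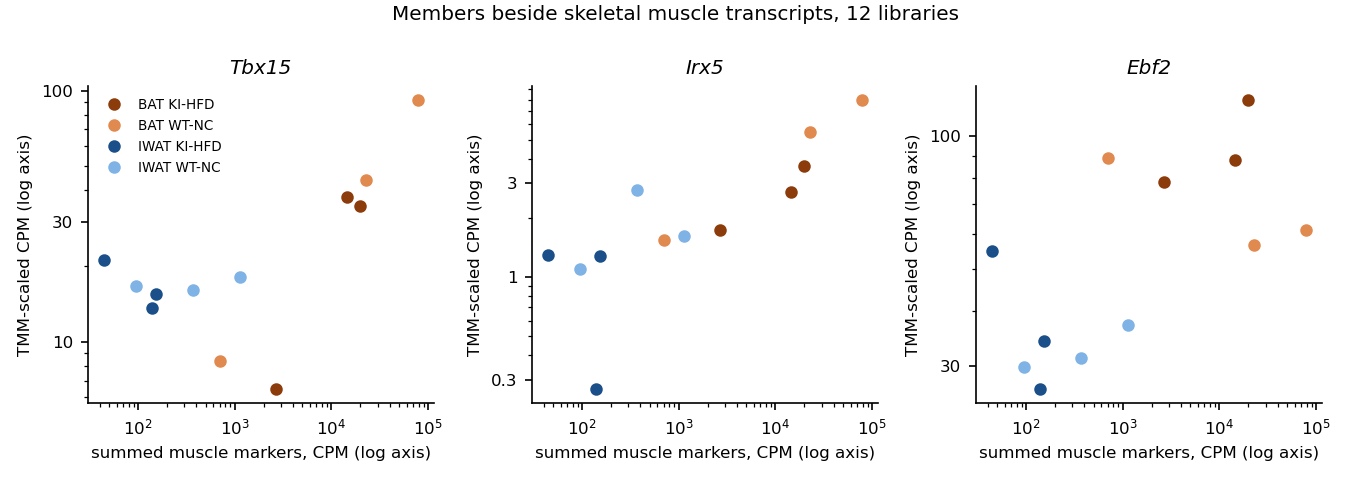
Tbx15, Irx5 and Ebf2 in TMM-scaled CPM against the summed CPM of 18 skeletal muscle markers, both axes logarithmic, 1 point per library. BAT libraries 3, at 2683 and 699.8 CPM of muscle RNA, are the lowest BAT points for Tbx15 and Irx5. Within each group's own BAT libraries, Ebf2 is lowest in library 3 of KI-HFD mice and highest in library 3 of WT-NC mice.

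Tbx1 (chromosome 16, 18580979 to 18590671, minus strand), a T-box factor of the pharyngeal region also used as a beige fat marker, varied widely from library to library. It had 3.24, 0.550 and 0 CPM in BAT and 0.224, 8.005 and 3.99 CPM in IWAT of KI-HFD mice. WT-NC mice had 1.66, 6.26 and 0.281 CPM in BAT and 1.96, 3.82 and 2.51 CPM in IWAT. The depots overlapped in both groups, and IWAT of WT-NC mice had the narrowest range. The log2 fold change was -1.71 (SE 1.35, adjusted p = 0.364) in KI-HFD mice and 0.04 (SE 0.86, adjusted p = 0.977) in WT-NC mice by edgeR's quasi-likelihood test. The WT-NC value has no stable sign: it was -0.16 under scaling by library totals and -1.48 without BAT replicate 2. The BAT libraries in order of Tbx1 within each group were also in order of muscle RNA. With the muscle covariate the WT-NC value was -3.45. The part of muscle RNA in the Tbx1 levels was not tested.

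Irx3 (chromosome 8, 91798525 to 91802067, minus strand), another Iroquois factor, was not called between depots. It had 3.12, 2.47 and 2.44 CPM in BAT and 3.09, 1.58 and 1.56 CPM in IWAT of KI-HFD mice, and 6.87, 5.20 and 5.02 CPM in BAT and 5.43, 5.21 and 4.53 CPM in IWAT of WT-NC mice. The depots overlapped in both groups. Its log2 fold change was 0.35 (SE 0.44, adjusted p = 0.569) in KI-HFD mice and 0.22 (SE 0.27, adjusted p = 0.580) in WT-NC mice by edgeR's quasi-likelihood test. The WT-NC value was -0.00197 under scaling by library totals.

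No other gene nearest to or overlapping a factor passed between the depots in either group. Gnb1l beside Tbx1, a G protein subunit-like gene, had 5.16 and 6.73 CPM in BAT and IWAT of KI-HFD mice and 3.35 and 5.71 CPM in BAT and IWAT of WT-NC mice. Wars2 beside Tbx15, a mitochondrial tryptophanyl-tRNA synthetase gene, had 16.3 and 10.4 CPM in BAT and IWAT of KI-HFD mice and 12.8 and 9.78 CPM in BAT and IWAT of WT-NC mice. Slc44a5, Spag17, Veph1 and Gm36380 had at most 19 counts in a library. Of the non-coding genes within Ebf2 on the other strand, Gm6878 had 6 to 42 counts in a library. There 4930438E09Rik had 1 to 17 counts and Gm23178 had 0 to 7. The non-coding or predicted genes Gm28652, Gm29478, 4930588K23Rik, Gm43269, Gm17402, Gm28511, Gm45336 and Gm38409 had 0 counts in every library.

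**Figure D4:**
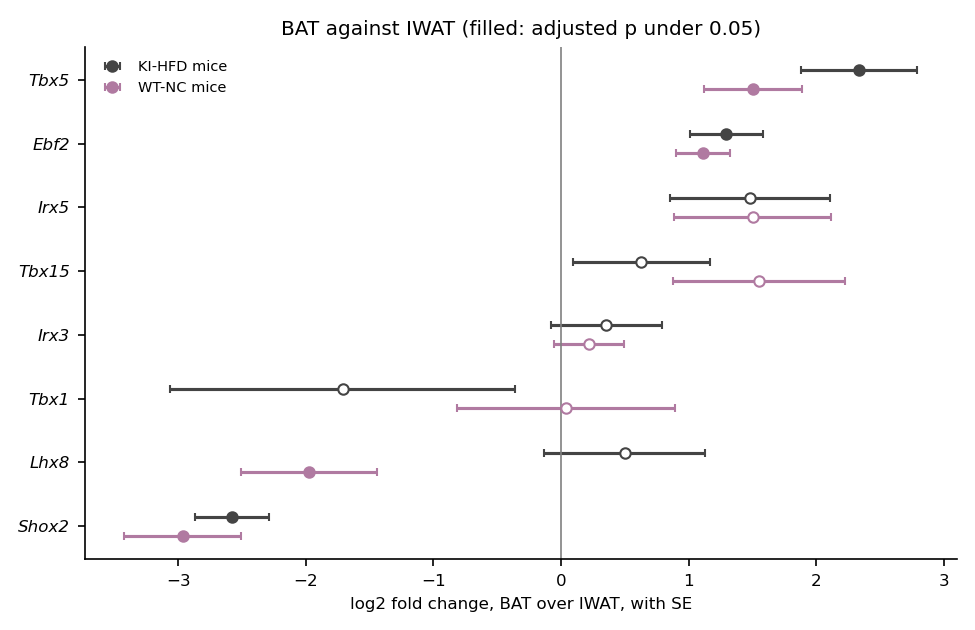
Log2 fold change of BAT over IWAT with its SE for 8 factors, in KI-HFD mice (dark) and WT-NC mice (violet), where filled points have an adjusted p under 0.05. Zic1 is left out because IWAT had 0 counts. Tbx5 and Ebf2 are filled above 0 and Shox2 below 0 in both groups, and Lhx8 is filled in WT-NC mice alone.

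Counting libraries that do not overlap gave a like picture. In KI-HFD mice 4 factors had every BAT library above every IWAT library and 1 had every BAT library below, where 24.1% and 25.2% of the genes tested did. In WT-NC mice these counts were 3 and 2, where 20.9% and 24.7% of genes did. Scaling by library totals in place of TMM moved the median log2 difference of all genes to -0.291 in KI-HFD mice and -0.247 in WT-NC mice, beside -0.05 and -0.03 under TMM. Under that scaling 1978 of 5925 called genes were above 0 in KI-HFD mice, against 2643 of 5455 under TMM, and 1806 of 5214 in WT-NC mice, against 2300 of 4337. The called factors kept their directions under each scaling tried.

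Per length of transcript, the factors ranked differently in each depot. In BAT of KI-HFD mice Ebf2 led with 13.8 ± 3.16 RPKM, ahead of Tbx15 with 7.01 ± 4.59 RPKM, and these 2 did not overlap. In BAT of WT-NC mice Tbx15 (12.8 ± 11.1 RPKM) and Ebf2 (9.94 ± 2.53 RPKM) overlapped and had the highest means (SD, n = 3). Ebf2 lay above the other 7 factors without overlap, and the lowest Tbx15 library, at 2.23 RPKM, lay below the highest of Irx3 (2.49 RPKM) and Irx5 (2.53 RPKM). The other 7 factors lay at 0.359 to 1.68 RPKM on average in BAT of KI-HFD mice and 0.275 to 2.06 RPKM in BAT of WT-NC mice. Neighbours in these orders overlapped, apart from the pair named, Shox2 above Zic1 in KI-HFD mice and Ebf2 above Irx3 in WT-NC mice.

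In IWAT of KI-HFD mice Ebf2, Shox2 and Tbx15 overlapped, at 5.57 ± 2.10, 4.48 ± 0.797 and 4.48 ± 1.06 RPKM (SD, n = 3), and all 3 lay above Tbx1, the next at 1.16 ± 1.11 RPKM. In IWAT of WT-NC mice Ebf2, Tbx15, Lhx8 and Shox2 formed the leading group with overlapping libraries, at 4.73 ± 0.562, 4.53 ± 0.274, 4.05 ± 1.14 and 3.76 ± 1.01 RPKM. Irx3 followed at 1.83 ± 0.169 RPKM without overlap. Shox2 had rank 7 of 9 in BAT of KI-HFD mice and rank 8 in BAT of WT-NC mice, and Zic1 was last in IWAT of both groups, at 0.

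KI-HFD and WT-NC mice differed in none of the 9 factors past the threshold in either depot. In BAT 0 of 9 factors were called, where edgeR called 0.0445% of 15726 genes, and 1 had an unadjusted p under 0.05. In IWAT 0 of the 8 factors tested were called (Zic1 had no counts there), where edgeR called 0% of 15881 genes, and 2 had an unadjusted p under 0.05. Over all genes an unadjusted p under 0.05 was reached by 1244 in BAT and 1730 in IWAT. The median log2 fold change, KI-HFD over WT-NC, was 0.41 for the 9 factors in BAT and -0.24 for 8 in IWAT, beside 0.00482 and 0.04 over all genes tested. Factors with every KI-HFD library below every WT-NC library numbered 1 in BAT, where 6.24% of genes did so, and 2 in IWAT, where 8.31% did. No factor had every KI-HFD library above (6.94% of genes in BAT and 8.2% in IWAT). Scaling by library totals moved the median log2 difference of all genes in BAT to -0.123, beside 0.02 under TMM.

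Irx3 had lower levels in KI-HFD than in WT-NC libraries in both depots, with no overlap. In BAT it had 52, 45 and 41 counts in KI-HFD mice and 120, 113 and 107 counts in WT-NC mice. In IWAT it had 69, 33 and 39 counts in KI-HFD mice and 144, 124 and 110 counts in WT-NC mice. As levels these are 2.68 ± 0.384 CPM in KI-HFD and 5.69 ± 1.02 CPM in WT-NC mice in BAT, and 2.08 ± 0.880 CPM in KI-HFD and 5.06 ± 0.466 CPM in WT-NC mice in IWAT (SD, n = 3). In the same IWAT libraries 9 of 10 endothelial markers lay lower in every KI-HFD library than in any WT-NC library (median log2 fold change -0.81, summed level 577 to 1171 CPM in KI-HFD and 1376 to 1977 CPM in WT-NC mice), as did 6 of 10 smooth muscle and pericyte markers (median -0.87, 519 to 892 CPM in KI-HFD and 1006 to 1231 CPM in WT-NC mice). In BAT 1 of 10 endothelial and 0 of 10 smooth muscle and pericyte markers did so. Over all genes tested 8.31% did so in IWAT and 6.24% in BAT. No marker of either list was called by edgeR in either depot, where 0.0445% of all genes in BAT and 0% in IWAT were. The part of these cells in the Irx3 levels was not tested. The log2 fold change of Irx3 was -1.10 (SE 0.34, adjusted p = 0.447) in BAT and -1.28 (SE 0.35, adjusted p = 0.323) in IWAT by edgeR's quasi-likelihood test, short of the threshold in both. The difference between the depots in this contrast was 0.20 (SE 0.48, adjusted p = 1.00, edgeR). In the authors' deposited table Irx3 had a log2 fold change of -0.94 with adjusted p = 0.175 in BAT and -0.97 with adjusted p = 0.0529 in IWAT. Irx3os, the antisense gene that shares 124 exon bases with Irx3, had 0 to 8 counts in a library.

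The gene closest to Irx3 in pattern over the 12 libraries was Meox2, a homeodomain factor of muscle precursors and vessels, with a root mean square difference of 0.350 in centred log2 CPM. Meox2 had 60.3 ± 12.8 CPM in KI-HFD and 85.8 ± 17.5 CPM in WT-NC mice in BAT, and 42.1 ± 11.5 CPM in KI-HFD and 77.2 ± 6.33 CPM in WT-NC mice in IWAT (SD, n = 3). It was picked by likeness in the same libraries, so its levels are a description.

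Lhx8 in IWAT was the other factor without overlap. It had 15, 71 and 85 counts in KI-HFD mice and 337, 262 and 172 counts in WT-NC mice, and even the highest KI-HFD library was below the lowest WT-NC library. Levels were 2.49 ± 1.57 CPM in KI-HFD and 10.3 ± 2.88 CPM in WT-NC mice (SD, n = 3). The log2 fold change was -2.04 (SE 0.58), and it was not called by edgeR's quasi-likelihood test (adjusted p = 0.337). DESeq2 on the same counts called it (adjusted p = 0.00575) among 349 genes called in IWAT. So did the authors' deposited table, with a log2 fold change of -1.35 and adjusted p = 0.00567. The submitters' notes name DESeq2, so their table is not support from a separate method. AI606473 also lay lower in all 3 KI-HFD libraries, with a log2 fold change of -1.58 (SE 0.75, adjusted p = 0.501, edgeR).

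In BAT Lhx8 had 3.54 ± 1.48 CPM in KI-HFD and 2.53 ± 1.72 CPM in WT-NC mice (SD, n = 3), overlapping. Endothelial and pericyte markers lay lower in the IWAT libraries of KI-HFD mice, as given for Irx3. Among other cell type markers, those of lymphocytes stood apart in IWAT KI-HFD 3, at 890 CPM in sum, and that library had the same Lhx8 level as IWAT KI-HFD 2, 3.40 CPM. Epithelial markers stood apart in IWAT WT-NC 2, at 81.4 CPM in sum, a library between the other WT-NC libraries in Lhx8. Their part in the Lhx8 levels was not tested.

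The remaining factors overlapped between KI-HFD and WT-NC mice. In BAT, log2 fold changes were 0.46 (SE 0.25) for Ebf2, 0.49 (SE 0.45) for Zic1, 0.41 (SE 0.41) for Tbx5 and 0.68 (SE 0.52) for Shox2, all with adjusted p of 0.739 or more by edgeR. Tbx15 had -0.90 (SE 0.84), Irx5 had -0.91 (SE 0.60) and Tbx1 had -1.14 (SE 1.36) in BAT. These 3 had their lowest BAT level in replicate 3 of each group, the library with the least muscle RNA, whose part was not tested. In IWAT Ebf2 had 0.24 (SE 0.26), Shox2 0.26 (SE 0.24) and Tbx15 -0.01 (SE 0.20). Tbx5 had -0.47 (SE 0.41), Irx5 -0.94 (SE 0.63) and Tbx1 0.56 (SE 0.93) in IWAT, each with adjusted p above 0.05 (edgeR).

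**Figure D5:**
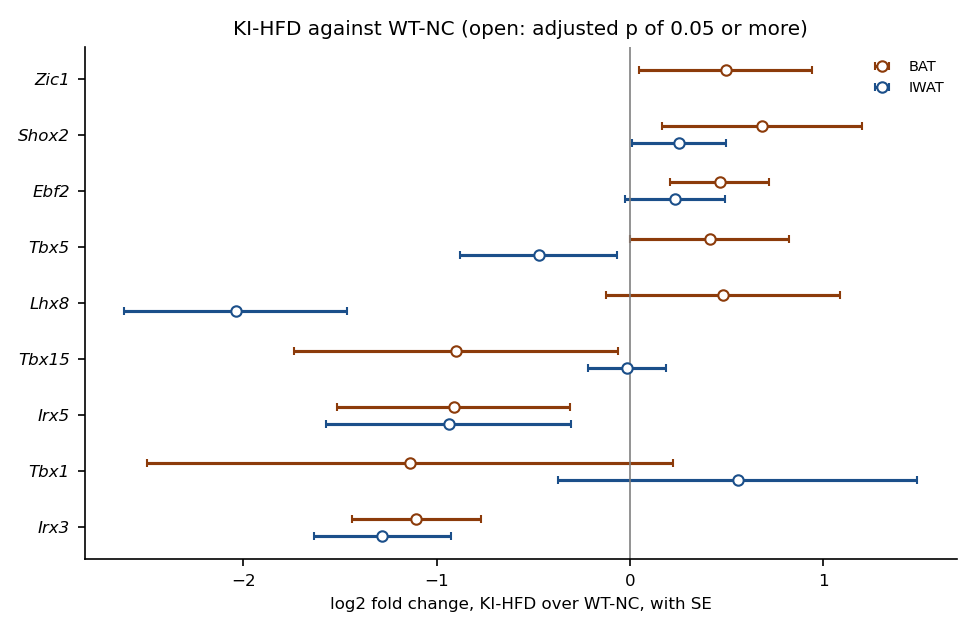
Log2 fold change of KI-HFD over WT-NC with its SE for the 9 factors in BAT (brown) and IWAT (blue), all open because none has an adjusted p under 0.05. Irx3 lies below 0 in both depots (-1.10 and -1.28), and Lhx8 lies at 0.48 in BAT and -2.04 in IWAT.

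Whether the KI-HFD against WT-NC difference itself differed between the depots was tested as an interaction over the 12 libraries. Zic1 was set aside because it had 0 counts in IWAT. Of the other 8 factors, 0 were called, where edgeR called 0% of 17395 genes, and 831 genes had an unadjusted p under 0.05. Lhx8, with the value given above, was the single factor with an unadjusted p under 0.05. The rest had interactions between -1.67 (SE 1.83) for Tbx1 and 0.90 (SE 0.60) for Tbx5.

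Other genes of the same transcription factor families were listed as 36 paralogues, of which 12 could be tested between depots in each group. In KI-HFD mice Zic4, Ebf3 and Tbx3 were higher in BAT and Ebf1 was lower, 4 of 12 beside 34.7% of all genes. Tbx3 had 63.3 CPM in BAT and 31.3 CPM in IWAT (log2 fold change 1.01, SE 0.23), Ebf3 had 46.7 and 25.8 CPM (0.84, SE 0.19) and Ebf1, a factor of adipogenesis and B cells, had 129.6 and 210.1 CPM (-0.71, SE 0.17). In WT-NC mice Zic4 and Ebf3 were higher in BAT, and Irx1, Irx2 and Tbx21 were lower, 5 of 12 beside 26.8% of all genes. Irx2 had 0.312 CPM in BAT and 3.32 CPM in IWAT, Irx1 had 0.0156 and 0.881 CPM and Tbx21, a T cell and natural killer cell factor, had 1.59 and 3.96 CPM. Lymphocyte markers summed to 14.9 to 22.4 CPM in BAT and 17.8 to 63.5 CPM in IWAT of WT-NC mice, and to 7.81 to 17.6 CPM in BAT and 8.25 to 890 CPM in IWAT of KI-HFD mice, and their part in the Tbx21 and Ebf1 differences was not tested. Thus Ebf2 and Ebf3 were higher in BAT in both groups, and Ebf1 was called lower in KI-HFD mice with a log2 fold change of -0.46 (SE 0.18, adjusted p = 0.0993, edgeR) in WT-NC mice. Between KI-HFD and WT-NC mice 0 of 11 paralogues tested in BAT and 0 of 12 in IWAT were called, beside 0.0445% and 0% of all genes.

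Further non-Hox factors of mesenchymal position were listed as 42 genes, with 21 tested between depots in KI-HFD mice and 23 in WT-NC mice. In KI-HFD mice 5 were lower in BAT and 0 higher, and in WT-NC mice 2 were lower and 2 higher. Over all genes 17.9% were lower and 16.8% higher in KI-HFD mice, and 12.6% lower and 14.2% higher in WT-NC mice, beside 5 of 21 lower here in KI-HFD mice and 4 of 23 called in WT-NC mice. Osr1, a zinc finger factor of limb and urogenital mesenchyme, had 2.48 CPM in BAT and 16.4 CPM in IWAT of KI-HFD mice, and 2.88 CPM in BAT and 17.3 CPM in IWAT of WT-NC mice. It was 6.63-fold lower in BAT of KI-HFD mice and 5.78-fold lower in BAT of WT-NC mice (edgeR quasi-likelihood adjusted p = 0.000435 and 0.000737). Meis3 was lower in BAT in both groups, and the limb mesenchyme factors Prrx1 and Prrx2 were called lower in KI-HFD mice (log2 fold changes -1.91 and -1.91). Prrx1 had 9.01 CPM in BAT and 33.7 CPM in IWAT of KI-HFD mice, and 26.8 and 29.3 CPM in BAT and IWAT of WT-NC mice, where it was not called. Meis1, a cofactor of Hox proteins, and Six4, which also acts in muscle development, were higher in BAT of WT-NC mice, at 14.3 and 6.36 CPM in BAT and 6.06 and 1.29 CPM in IWAT. Six4 had 5.61, 11.7 and 1.73 CPM in the BAT libraries 1, 2 and 3 of WT-NC mice, the order of their muscle RNA, and 3.60, 3.35 and 2.14 CPM in those of KI-HFD mice, again in that order. The part of muscle RNA in the Six4 call was not tested. The fibroblast and progenitor marker sum lay higher in IWAT in both groups, and its part in the Osr1, Prrx1 and Prrx2 differences was not tested. The median log2 fold change of the list was -0.65 in KI-HFD mice and -0.15 in WT-NC mice. None of 22 tested in BAT and 23 in IWAT was called between KI-HFD and WT-NC mice, beside 0.0445% and 0% of all genes.

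The genes most like each factor were read off the 12 libraries as the smallest root mean square difference of centred log2 CPM. Zic1 was nearest to the non-coding genes Gm48397 (0.291) and C030037D09Rik (0.314), and Gm48397 had 46 to 51 counts in BAT libraries of KI-HFD mice and 19 to 57 in those of WT-NC mice. Tbx15 was nearest to Fbxo32 (0.309), a ubiquitin ligase gene of muscle wasting, and Atp5g1 (0.367). Fbxo32 had 11.8 to 53.3 CPM in BAT of KI-HFD mice and 12.002 to 134.7 CPM in BAT of WT-NC mice, beside 17.7 to 20.9 and 17.8 to 19.0 CPM in IWAT of KI-HFD and WT-NC mice. Tbx5 was nearest to P2ry1 (0.298) and Rhpn2 (0.312), Shox2 to Sec16b (0.339) and Efhd1 (0.418), and Ebf2 to Pdss2 (0.154) and Mrpl9 (0.155). The next for Irx3 after Meox2 was Sparcl1 (0.358), and for Lhx8 after AI606473 it was Ncr1 (0.646). Irx5 (Smtnl2, 0.561, and Npnt, 0.564) and Tbx1 (Hhip, 0.892, and Fam167a, 1.14) had nearest genes farther off.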

How the data were processed

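Poly-A, single-end, non-stranded libraries of 12 samples were analysed, 3 in each of 4 groups taken from the sample titles. Each sample's deposited table gives raw read counts by gene, made with FastQC, STAR (GRCm38.p5) and HTSeq per the submitters' processing notes, without versions. BAT tables also hold 5 tallies of reads outside genes, left out here (4.99 to 11.65% of reads in no gene, 22.7 to 31.6% not uniquely aligned). The authors' deposited tables of KI against WT hold, per the file headers, a base mean (a signal averaged over libraries), p-values, a Wald score, and a log2 ratio with an error. The sources used here do not say if those ratios are shrunken. The submitters' notes also name DESeq2, without a version.

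Counts were tested in R 4.3.3 with edgeR 4.0.16 (filterByExpr, minimum count 10; TMM; quasi-likelihood F test; Benjamini-Hochberg over all genes; threshold 0.05) in fits of the 6 libraries compared, and of all 12 for the interaction. P-values are two-sided. The SE is the absolute log2 fold change divided by the root of F. RPKM uses GENCODE exon lengths on GRCm38, with all 55536 identifiers matched. The edgeR fits with these settings were first tested on simulated data, and the alternatives named next were not. DESeq2 1.42.0 and limma 3.58.1 were alternatives, with other scalings, no filter, blocks, batch terms and libraries left out. Library pairs within a group differed by more than sampling noise. The 9 factors and all lists were chosen with earlier results of these data known. Text names every factor and its neighbours, up to 4 called genes per list and direction, and the 2 nearest genes in pattern. Intervals and floors cover counting error only.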

Additional observations from a re-analysis of the deposited data

How the results depend on the processing

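In KI-HFD mice Ebf2, Zic1, Tbx5 and Shox2 kept their depot calls and directions under every alternative but the muscle covariate, which called 0 factors and 51 genes. In WT-NC mice 3 to 7 of the 9 factors and 1911 to 6969 genes were called as single libraries were left out, with 7 factors and 6969 genes without BAT replicate 3. Leaving out BAT replicate 1 or any IWAT library of WT-NC mice gave 3 factors. In KI-HFD mice 3463 to 5243 genes were called as single libraries were left out. The muscle covariate called 3 factors and 1415 genes in WT-NC mice. In KI-HFD mice the muscle sums of the depots do not overlap, and in WT-NC mice they do. The covariate and depot thus cannot be told apart in KI-HFD mice.

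Replicate numbers are shared across groups, but same-numbered libraries had correlations of -0.245 to 0.232 in their deviations, and sample numbers that recur in both depots gave -0.118 to 0.0699. They were not treated as pairs. A replicate block changed no factor call between depots and gave 11 genes called for KI-HFD against WT-NC in BAT. The file number block called 0 factors and 670 genes between depots in WT-NC mice, with 2 pairs, and changed no factor call in KI-HFD mice.

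For KI-HFD against WT-NC in BAT, 0 genes were called with RLE factors, library totals, limma-voom, the number range as a batch term or a fit of all 12 libraries, 207 with no filter, 244 with DESeq2, 38 with the muscle covariate, 1 within the lower number range, and 0 to 2 with single libraries left out. In IWAT 2 genes were called with library totals, 45 with no filter, 349 and 1 factor (Lhx8) with DESeq2, 1 in the fit of all 12 libraries and 0 to 10 with single libraries left out. For the interaction no filter gave 33 genes and DESeq2 25.

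Signs turned only for log2 fold changes that were not called. Tbx1 between depots in WT-NC mice was -0.16 with library totals, -0.0105 with no filter, -0.0130 in the fit of all 12 libraries, -0.81 with limma-voom, -0.61 with the replicate block, -0.42 with the batch term, -0.33 with the file number block, -3.45 with the muscle covariate, and -1.48 to 0.56 with single libraries left out. Irx3 there was -0.00197 with library totals. With the muscle covariate Tbx15 was -1.08 and Irx5 -0.38 in WT-NC mice, and Tbx15 -2.76 and Irx3 -0.52 in KI-HFD mice. For KI-HFD against WT-NC in IWAT, Tbx1 was -0.42 with limma-voom, -0.12 with the replicate block, -0.0435 with the muscle covariate and -0.41 to 1.12 with single libraries left out. Tbx15 was 0.0865 within the lower number range and -0.23 to 0.11 with single libraries left out, and Ebf2 -0.12 to 0.44. In BAT Tbx1 was -3.30 to 0.38 with single libraries left out. Interactions turned within the lower number range for Irx3 (-0.22), Irx5 (-0.39) and Ebf2 (-0.0209), and for Irx5 with library totals (-0.11) and the muscle covariate (-0.24). With single libraries left out the Irx5 interaction was -0.39 to 0.56 and that of Tbx15 was -1.36 to 0.0145. The cause of these turns was not tested. The covariate and the lower number range were added after seeing the data. Zic1, with 23 to 45 counts in a BAT library and 0 in IWAT, has the least depth of the called factors.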

Other observations

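Regulators of brown and white adipocyte differentiation, a list of 25 genes that were all tested, had 9 higher and 8 lower in BAT of KI-HFD mice and 7 higher and 2 lower in BAT of WT-NC mice (edgeR quasi-likelihood), where 34.7% and 26.8% of all genes tested were called in KI-HFD and WT-NC mice. Ppara, a lipid-sensing nuclear receptor, had 264 CPM in BAT and 12.8 CPM in IWAT of KI-HFD mice, and 200.3 CPM in BAT and 8.06 CPM in IWAT of WT-NC mice. Esrrg, an orphan receptor of mitochondrial genes, had 26.8 CPM in BAT and 2.60 CPM in IWAT of KI-HFD mice, and 23.8 CPM in BAT and 3.57 CPM in IWAT of WT-NC mice. Cebpb, a factor of brown adipogenesis, was 4.72-fold higher in BAT of KI-HFD mice and 3.19-fold higher in BAT of WT-NC mice. The coactivator gene Ppargc1a was 6.10-fold and 10.3-fold higher in BAT of KI-HFD and WT-NC mice.

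On the other side, Zfp423, a zinc finger factor that holds white adipocytes in the white state, was 3.31-fold and 3.33-fold lower in BAT of KI-HFD and WT-NC mice. Tle3, a partner of PPARgamma, was 2.24-fold and 1.87-fold lower. Pdgfra, which marks fibroblasts and adipocyte progenitors, and Zfp521, an inhibitor of Ebf factors, were lower in BAT of KI-HFD mice (log2 fold changes -1.36 and -1.25) and were not called in WT-NC mice (-0.96 and -0.71). Between KI-HFD and WT-NC mice 0 of the 25 were called in either depot, where edgeR called 0.0445% of all genes in BAT and 0% in IWAT.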
